A study of Sus scrofa with 4 samples.

Results

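The 68 genes described here are the heat shock proteins and the J-domain cochaperones of the pig, out of 26921 genes or loci in the expression tables. They were chosen by name, as every gene whose symbol starts with HSP or DNAJ, leaving out HSPG2, which encodes perlecan, and the 5 endoplasmic reticulum stress genes HSPA5, HSP90B1, DNAJB9, DNAJB11 and DNAJC3. Of the 68, 41 carry a DNAJ symbol and 27 an HSP symbol. Expression was measured by RNA sequencing in cultured cells that the labels call immature spermatogonia of the pig testis. There were 2 libraries of cells with knockdown of ZBTB16, a transcription factor of undifferentiated spermatogonia, and 2 libraries of control cells whose genotype is given as WT. The series' design plans knockdown by a short hairpin RNA delivered with a lentivirus into primary cells. The labels state neither whether the control cells received a vector nor how old the animals behind the sequenced cells were. An effect of the vector and one of the knockdown therefore cannot be told apart. The 2 libraries of a group come from 2 independent experiments, per the labels.

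Heat shock proteins are molecular chaperones that keep other proteins folded, refold damaged ones and pass those beyond repair to degradation. HSP70 proteins hold and release short exposed stretches of a client under the control of ATP. J-domain proteins bring clients to HSP70 and start its ATP hydrolysis, and nucleotide exchange factors, HSP110 proteins among them, let the client go. HSP90 matures clients such as steroid receptors and kinases, the chaperonin HSPD1 with its lid HSPE1 folds proteins inside mitochondria, and small heat shock proteins bind unfolding proteins without ATP. In the mouse testis several of these genes have germ line roles, HSPA2 in spermatocytes being the best known.

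The ZBTB16 knockdown libraries held 18500447 and 16548342 expected counts and the control libraries 17283536 and 15983390. ZBTB16 itself was at 1.37 and 1.34 FPKM in the knockdown libraries, against 1.77 and 1.76 FPKM in the control libraries (0.779 times the control level, adjusted p = 0.00338, edgeR). FPKM is the number of fragments scaled by the effective length of the transcript and by the mapped fragments of the library. Effective length is the transcript length less roughly the mean fragment length, so the FPKM of a short transcript also depends on fragment length. The fall of ZBTB16 did not pass with DESeq2 (adjusted p = 0.109) or with limma on FPKM (adjusted p from 0.0685 to 0.101). It passed in the other fits run. The mean sequenced fragment was 266.4 and 267.3 bases long in the knockdown libraries, against 325.7 and 326.7 bases in the control libraries, so fragment length separated the libraries exactly as the groups did. The 6 germ cell genes examined (DAZL, DDX4, DND1, TEX15, PIWIL2 and MAEL) lay between 1.86 and 6.84 FPKM; 3 rose, 1 fell and their summed FPKM was 19.4 and 18.2 in the knockdown, against 21.5 and 21.6 in the control. Of 8 genes of undifferentiated spermatogonia 1 rose and 2 fell, and their sum, mostly UCHL1 and ID4, was 127 and 126 FPKM in the knockdown, against 158 and 156 FPKM in the control. The genes of later germ cells PRM1 and TNP1 were listed at 0, while ODF2 reached 18.8 FPKM. Some genes of other testis cells were far higher, such as ACTA2 of peritubular cells at 3198 to 3508 FPKM. CLDN11 of Sertoli cells was at 571 to 721 FPKM and CYP11A1 of Leydig cells at 144 to 162 FPKM. The Leydig cell genes STAR and CYP17A1 were at no more than 0.38 FPKM. Of 7 macrophage genes CSF1R did not exceed 1.23 FPKM, while CD14 was at 12.7 to 18.1 and AIF1 at 2.48 to 10.1 FPKM. Of these 7, 0 rose and 3 fell. Their summed FPKM was 22.7 and 24.7 in the knockdown, against 33.5 and 37.6 in the control. In such bulk samples, fewer cells of a type and less RNA per cell cannot be told apart.

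Of the 68 genes, 60 had enough counts to be tested. The other 8 (DNAJB3, DNAJB7, DNAJB8, DNAJB13, DNAJC5B, DNAJC5G, DNAJC22 and HSPB9) never passed 0.32 FPKM. Among the 60, 10 rose and 22 fell in the knockdown at an adjusted p under 0.05, and 28 did not pass. Over all 15763 genes tested 46.4% were called, 22.7% as higher and 23.8% as lower. Among the chaperone genes rises made up 16.7% of those tested and falls 36.7%; the list as a whole was not tested. Their median log2 change was -0.03, against 0 over all genes, and only HSPB3 changed at least 2-fold by counts. FPKM of both knockdown libraries lay below both control libraries for 31 of the 60 genes and above them for 11, against 41.4% and 29.0% of all genes tested. Together the 68 genes held 0.878% and 0.889% of all counts in the knockdown libraries, against 0.908% and 0.912% in the control libraries.

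**Figure D1:**
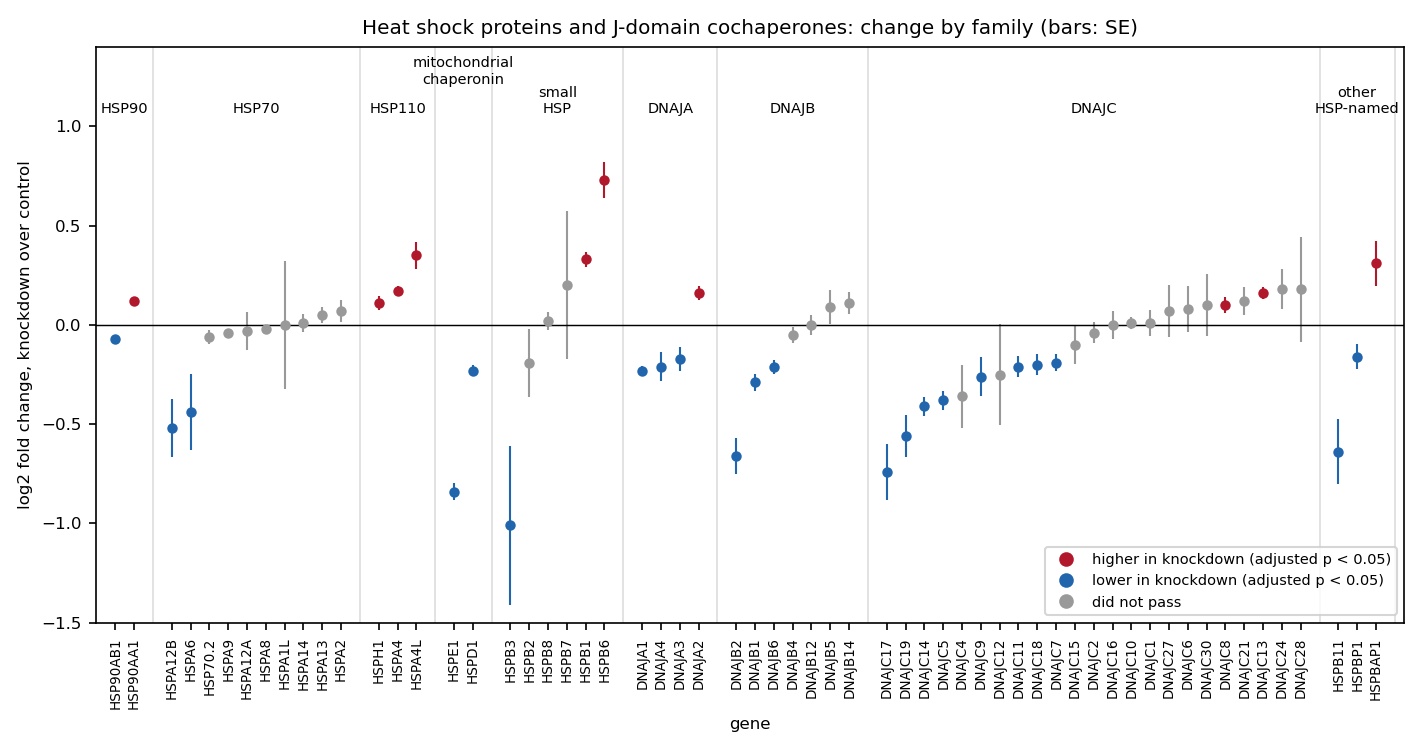
Log2 fold change of the 60 tested genes (y axis, knockdown over control, from 2 libraries a group), ordered within families along the x axis; bars are standard errors of the fit. All 3 HSP110 genes lie above 0, both genes of the mitochondrial chaperonin below it, and most HSP70 genes close to it.

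The fold changes of single genes varied with transcript length in these libraries, which bears on every family below. The cause of this was not tested. Over all genes tested the median log2 change was -0.27 for transcripts under 1500 bases (2535 genes) and 0.09 for those of at least 3000 bases (8111 genes). Among the chaperone genes it was -0.36 for the 11 transcripts under 1500 bases, with 2 rises and 5 falls, and 0.06 for the 20 of at least 3000 bases, with 6 rises and 4 falls. The rank correlation of log2 change with transcript length was 0.34 over the 60 genes and 0.37 over all genes tested, and with GC content it was -0.21 and -0.25; the genes share their libraries, and the values are descriptions. In a fit with a smooth trend on transcript length taken out of each library (the length-adjusted fit), 14 of the 60 chaperone genes were called higher and 12 lower, against 21.0% and 19.9% of all genes tested, so the share of falls was then close to that over all genes. Taking out trends on length and GC content together (the length- and GC-adjusted fit) left 8 higher and 20 lower, against 17.5% and 22.0%. Offsets from the effective length of each gene in each library (the effective-length fit) left 9 higher and 23 lower, against 22.5% and 23.9%. On log2(FPKM + 1) limma called 2 of 58 higher and 26 lower, against 15.6% and 29.7% of all genes it tested.

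**Figure D2:**
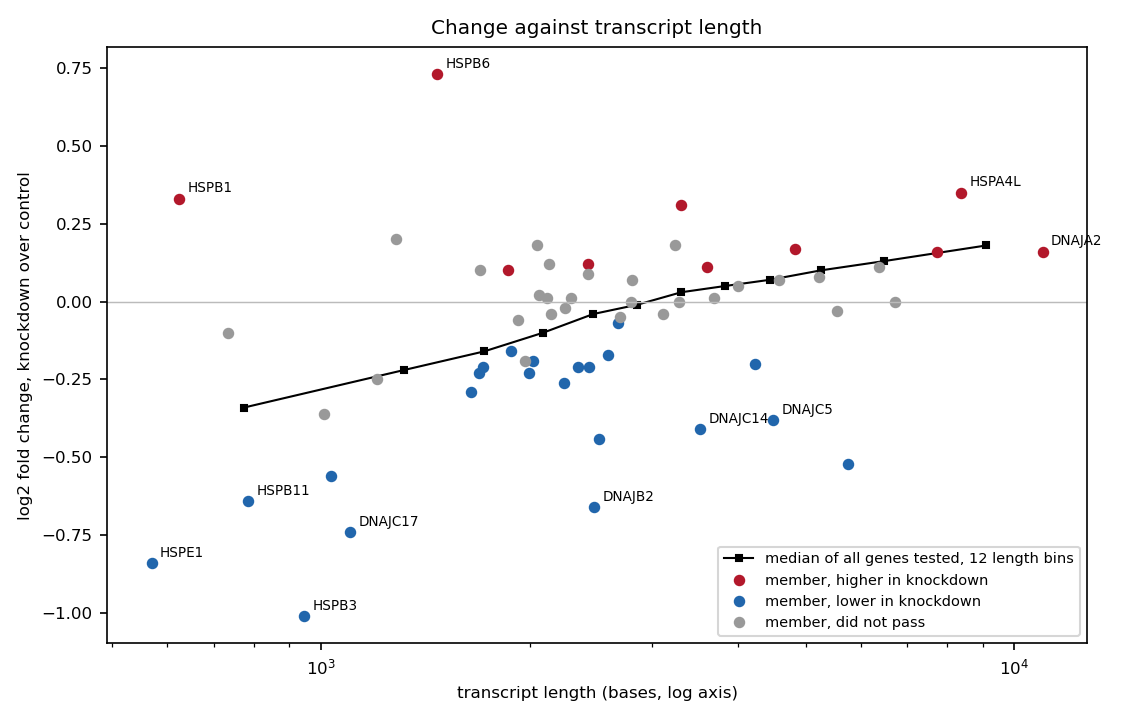
Log2 fold change (y axis, knockdown over control) of the 60 tested chaperone genes against mean transcript length in bases (log x axis); the black line joins the medians of all genes tested in 12 length bins of nearly equal size. HSPB1 and HSPB6 stand above the line at short lengths, and HSPE1, DNAJC17 and DNAJB2 below it.

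The heat shock element is the sequence that heat shock factors bind, built of GAA units in alternating orientation. It was looked for on both strands of 300-base windows, from 250 bases before to 50 bases after the annotated start of each gene in Sscrofa11.1 (RefSeq). A pair of units (GAA and TTC spaced by 2 bases, which reads the same on both strands) stood in the windows of 14 of the 68 genes (20.6%), against 6.47% of 20641 protein-coding genes. A run of 3 alternating units, GAA, TTC and GAA or TTC, GAA and TTC, each spaced by 2 bases and so always holding a pair, stood in 6 windows (8.82%), against 0.368%. These 6 genes were HSPA8, HSPD1, HSP90AB1, DNAJA1, DNAJB6 and DNAJB14, and 4 of them fell, 0 rose and 2 (HSPA8 and DNAJB14) did not pass; the length-adjusted fit called 1 higher (HSPA8) and 2 lower. Of the 12 tested genes with at least the pair, 8 fell, 1 (HSPB1) rose and 3 did not pass, against 23.8% lower and 22.7% higher over all genes. The length-adjusted fit called 3 of the 12 lower and 2 higher, against 19.9% and 21.0% over all genes. The length- and GC-adjusted fit called 7 of the 12 lower and 1 higher, against 22.0% and 17.5% over all genes. Of the 6 genes with the run of 3 it called 4 lower and 0 higher. A match of letters is a description and not a bound site. In HSP70.2, HSP90AA1 and HSPB1 the annotated start is the first base of the coding sequence, so their windows may miss the transcription start. HSP70.2 and HSP90AA1, counted without a match, therefore cannot be taken to lack the element. The windows of HSPA8 (chr9:49986711-49987010, minus strand), HSPD1 (chr15:101373449-101373748, minus strand), HSP90AB1 (chr7:39237049-39237348, plus strand) and DNAJA1 (chr10:33445507-33445806, minus strand) are printed because these genes carry the largest counts among those with the run of 3, in capitals where it lies.
HSPA8: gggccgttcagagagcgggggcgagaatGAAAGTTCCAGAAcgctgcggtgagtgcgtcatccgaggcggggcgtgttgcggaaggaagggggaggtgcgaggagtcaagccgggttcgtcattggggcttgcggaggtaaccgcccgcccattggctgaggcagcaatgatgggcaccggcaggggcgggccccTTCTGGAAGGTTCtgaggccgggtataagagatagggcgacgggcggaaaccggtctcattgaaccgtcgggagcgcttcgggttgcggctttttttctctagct
HSPD1: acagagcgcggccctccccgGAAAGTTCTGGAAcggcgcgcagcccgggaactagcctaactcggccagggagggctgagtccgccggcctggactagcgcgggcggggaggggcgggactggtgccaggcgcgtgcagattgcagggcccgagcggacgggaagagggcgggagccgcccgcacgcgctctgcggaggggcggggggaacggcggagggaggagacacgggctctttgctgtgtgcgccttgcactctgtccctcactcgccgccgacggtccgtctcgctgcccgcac
HSP90AB1: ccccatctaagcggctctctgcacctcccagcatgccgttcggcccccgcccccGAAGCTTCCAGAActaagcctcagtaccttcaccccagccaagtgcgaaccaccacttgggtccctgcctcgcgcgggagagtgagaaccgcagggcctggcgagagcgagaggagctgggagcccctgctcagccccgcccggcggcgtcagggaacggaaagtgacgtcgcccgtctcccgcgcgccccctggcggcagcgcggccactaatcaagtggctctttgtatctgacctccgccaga
DNAJA1: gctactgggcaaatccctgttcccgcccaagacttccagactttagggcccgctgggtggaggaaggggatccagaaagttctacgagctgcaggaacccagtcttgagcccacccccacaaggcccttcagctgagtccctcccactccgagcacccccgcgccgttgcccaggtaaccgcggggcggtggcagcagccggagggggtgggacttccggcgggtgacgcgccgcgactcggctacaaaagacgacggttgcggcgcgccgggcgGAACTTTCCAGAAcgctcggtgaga
In HSPA8 the run occurred at 2 places in the window, and in DNAJA1 it lay 25 bases after the annotated start.

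HSP90 of the cytosol changed in opposite directions in its 2 genes. HSP90AA1, the inducible form (annotated on an unplaced scaffold, 917500 to 921977), was at 661.85 and 667.73 FPKM in the knockdown libraries, against 636.29 and 639.67 FPKM in the control libraries. Both knockdown libraries lay above both controls, and the gene rose 1.08-fold (log2 0.12, SE 0.0175, adjusted p = 2.44e-09). HSP90AB1, the constitutive form (chromosome 7, 39237299 to 39250479), was at 621.62 and 622.13 FPKM in the knockdown, against 679.00 and 671.90 FPKM in the control. It fell to 0.956 times the control level (log2 -0.07, SE 0.0172, adjusted p = 0.000686). The ratio of HSP90AA1 to HSP90AB1 by FPKM was 1.06 and 1.07 in the knockdown libraries, against 0.937 and 0.952 in the control libraries. By FPKM the inducible form was thus the higher of the pair in each knockdown library and the lower in each control. By counts the same ratio was 0.952 and 0.96 in the knockdown, against 0.836 and 0.849 in the control. HSP90AB1 thus had more counts than HSP90AA1 in every library. The call of HSP90AA1 was lost with limma on log2(FPKM + 1) (log2 0.06, adjusted p = 0.0622). The counts of HSP90AB1 were not whole numbers, so the authors' counting had shared some of its reads with other transcripts.

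Among the HSP70 genes, 0 of 10 rose, 2 fell and 8 did not pass by counts, with a median log2 change of -0.03. Over all genes tested 22.7% were called higher and 23.8% lower. The calls of the most abundant HSP70 genes depended on the fit. HSPA8, the constitutive cytosolic HSP70 (chromosome 9, 49982278 to 49986760), had the highest FPKM of all 68 genes, 925.17 and 932.52 in the knockdown libraries, against 975.50 and 985.81 in the control libraries. Although the groups did not overlap by FPKM, its fitted change was 0.989-fold (log2 -0.02, SE 0.0168, adjusted p = 0.449). HSPA9, the HSP70 of mitochondria, was at 182.50 and 185.30 FPKM in the knockdown, against 196.05 and 193.65 FPKM in the control (log2 -0.04, SE 0.0214, adjusted p = 0.173). HSP70.2, a copy of the heat-inducible HSP70 of the cytosol, was at 72.13 and 73.91 FPKM in the knockdown, against 79.17 and 80.19 FPKM in the control (log2 -0.06, SE 0.0362, adjusted p = 0.208). Its annotated model of 1926 bases holds the coding sequence only and lies within the span of HSPA1L, so reads of both genes cannot be fully separated. The length-adjusted fit called HSPA8 higher (log2 0.07, adjusted p = 9.14e-05) and HSP70.2 too (log2 0.10, adjusted p = 0.0242). In the length- and GC-adjusted fit HSPA8 was at a log2 change of 0.00 (adjusted p = 0.591), HSP70.2 was at 0.15 (adjusted p = 0.00031) and HSPA9 passed as lower (log2 -0.10, adjusted p = 2.89e-05). On log2(FPKM + 1) limma called 4 of 9 HSP70 genes lower and 0 higher, against 29.7% and 15.6% of all genes it tested. The median log2 change in that fit was -0.08 for the HSP70 genes and -0.05 over all genes. The genes called lower included HSPA8 (-0.08, adjusted p = 0.0267), HSPA9 (-0.08, adjusted p = 0.0437) and HSP70.2 (-0.12, adjusted p = 0.0233). With the replicate number as a block HSPA8 passed as lower too (adjusted p = 0.038).

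The HSP70 genes of more special use were at lower levels. HSPA14, which works with the J-protein DNAJC2 at the ribosome, was at 34.89 and 36.53 FPKM in the knockdown, against 35.75 and 36.73 FPKM in the control, and the groups overlapped (adjusted p = 0.89). HSPA2, the HSP70 needed for mouse spermatogenesis, was at 18.25 and 18.27 FPKM in the knockdown, against 18.10 and 17.94 FPKM in the control (log2 0.07, adjusted p = 0.302). HSPA13, an HSP70 of the endoplasmic reticulum, was at 31.31 and 35.22 FPKM in the knockdown, against 31.63 and 34.45 FPKM in the control, with overlapping groups (adjusted p = 0.302; log2 -0.13 and adjusted p = 0.00338 in the length- and GC-adjusted fit). HSPA12B, a distant HSP70 relative known from endothelium, fell to 1.02 and 0.95 FPKM in the knockdown, against 1.31 and 1.58 FPKM in the control (log2 -0.52, SE 0.146, adjusted p = 0.00144). The gene of HSPA12B overlaps C17H20orf27 and that of HSPA13 overlaps LOC100152428, and the counts of both were not whole. PECAM1, the most highly expressed of 5 endothelial genes examined, was at 8.32 and 7.67 FPKM in the knockdown, against 9.75 and 8.06 FPKM in the control, and the summed FPKM of the 5 was 10.7 and 9.61 against 12.4 and 10.8. Of the 5, TEK fell and CDH5 did not exceed 0.55 FPKM; their part in the change of HSPA12B was not tested. Without control replicate 2 the adjusted p of HSPA12B was 0.0911, and with limma it was 0.0647. HSPA6, an HSP70 that is strictly stress-induced in humans, was at 1.42 FPKM in each knockdown library, against 2.06 and 1.94 FPKM in the control (log2 -0.44, adjusted p = 0.049). That call was lost without any single library (adjusted p from 0.0908 to 0.202), with both other scalings and with the replicate number as a block (adjusted p = 0.0639).

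All 3 HSP110 genes rose by counts, and 1 of them (HSPA4) with limma on log2(FPKM + 1). Over all genes tested, 22.7% rose by counts and 15.6% in that limma fit. HSP110 proteins resemble HSP70 but act as its nucleotide exchange factors. HSPA4 (chromosome 2, 135345724 to 135391112) was at 71.01 and 72.68 FPKM in the knockdown libraries, against 64.93 and 66.50 FPKM in the control libraries. The groups did not overlap, and the gene rose 1.12-fold (log2 0.17, SE 0.0253, adjusted p = 5.1e-09). HSPA4L was at 4.03 and 4.85 FPKM in the knockdown, against 3.35 and 3.73 FPKM in the control, a rise of 1.28-fold (log2 0.35, SE 0.0677, adjusted p = 3.11e-06). HSPH1, the heat-inducible member, was at 41.22 and 42.42 FPKM in the knockdown, against 38.84 and 41.56 FPKM in the control. Its groups overlapped by FPKM, and it rose 1.08-fold by counts (log2 0.11, SE 0.0353, adjusted p = 0.00879). The ratio of HSPA4 to HSPA8 by FPKM was 0.0768 and 0.0779 in the knockdown libraries, against 0.0666 and 0.0675 in the control libraries. The 3 transcripts are 3602 to 8383 bases long and 33.7% to 44.1% GC. The length-adjusted fit again called all 3 higher (log2 0.11 for HSPA4, 0.21 for HSPA4L and 0.10 for HSPH1). In the length- and GC-adjusted fit 0 of the 3 passed (log2 0.04, 0.03 and 0.01; adjusted p = 0.328, 0.728 and 0.888). With limma the adjusted p was 0.0898 for HSPA4L and 0.35 for HSPH1. The adjusted p of HSPH1 was 0.394 when control replicate 1 was left out and 0.113 when knockdown replicate 2 was.

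**Figure D3:**
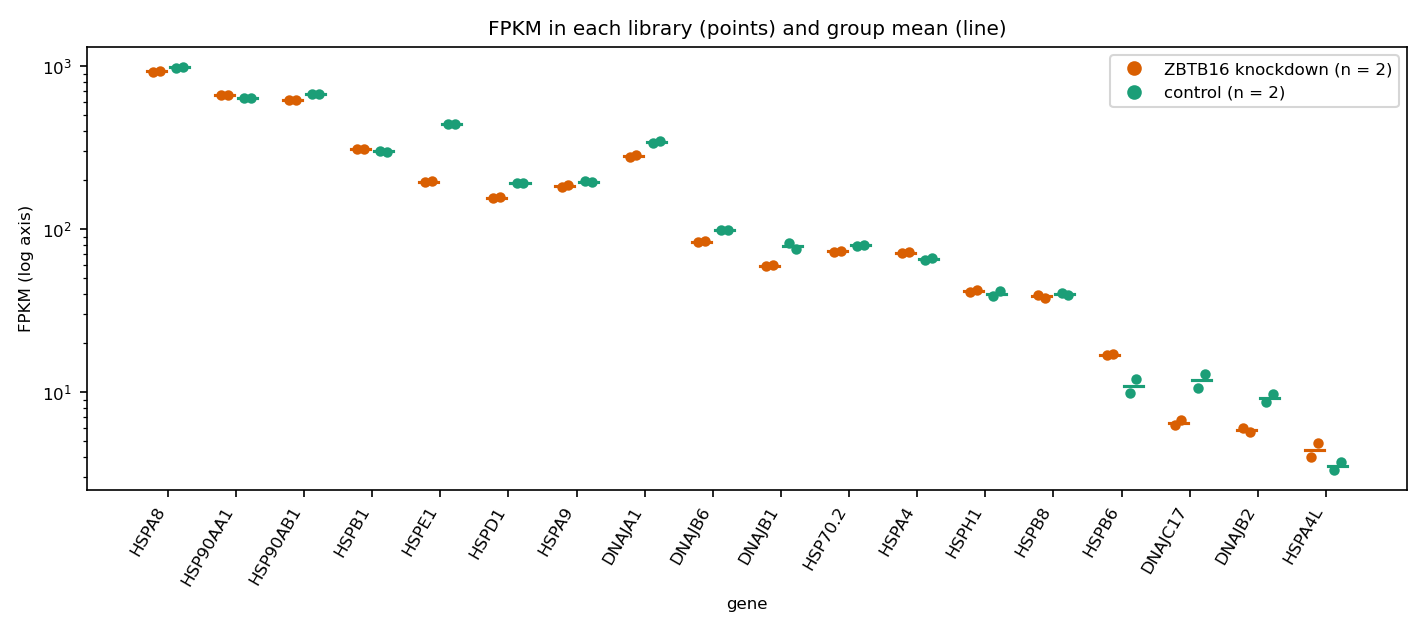
FPKM (log y axis) of 18 chaperone genes in each ZBTB16 knockdown library (orange) and each control library (green); lines are group means of 2. The libraries of a group lie close together, and the widest gap between groups is that of HSPE1, at 194.03 and 197.25 FPKM in the knockdown against 443.42 and 438.96 FPKM in the control.

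Both genes of the mitochondrial chaperonin fell, by unequal amounts. HSPE1 and HSPD1 stand head to head on chromosome 15, with 520 bases between their annotated starts (HSPD1 101360355 to 101373498 on the minus strand, HSPE1 101374019 to 101376146 on the plus strand), so the HSPD1 window printed above belongs to the stretch they share. HSPE1, the lid of the chaperonin, was at 194.03 and 197.25 FPKM in the knockdown libraries, against 443.42 and 438.96 FPKM in the control libraries. It fell to 0.557 times the control level by fitted counts (log2 -0.84, SE 0.0436, adjusted p = 5.05e-42). HSPD1, the folding chamber, was at 154.21 and 158.01 FPKM in the knockdown, against 191.88 and 193.17 FPKM in the control, a fall to 0.85 times (log2 -0.23, SE 0.0257, adjusted p = 4.15e-15). HSPE1 had 1.26 and 1.25 times the FPKM of HSPD1 in the knockdown, against 2.31 and 2.27 times in the control. By counts the same ratio was 0.221 and 0.219 in the knockdown, against 0.338 and 0.332 in the control. The HSPE1 transcript is 570 bases long and that of HSPD1 1998 bases. The log2 changes of HSPE1 and HSPD1 were -0.52 and -0.10 in the length-adjusted fit, -0.46 and -0.19 in the length- and GC-adjusted fit and -1.12 and -0.25 in the effective-length fit; both genes passed as lower each time.

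Among small heat shock proteins the main members rose or did not pass. There were 2 rises and 1 fall among 6 tested genes, against 22.7% higher and 23.8% lower over all genes. HSPB6, also called HSP20 and abundant in smooth muscle (chromosome 6, 45181439 to 45184011), was at 16.84 and 17.09 FPKM in the knockdown libraries, against 9.83 and 12.01 FPKM in the control libraries. It rose 1.66-fold (log2 0.73, SE 0.0929, adjusted p = 5.23e-12), the largest rise among the 60 genes, and it passed as higher under every alternative run. HSPB1, or HSP27, which binds unfolding proteins and actin filaments (chromosome 3, 10038074 to 10039441), was at 311.95 and 311.19 FPKM in the knockdown, against 303.11 and 297.40 FPKM in the control. By counts it rose 1.26-fold (2070 and 1842 counts against 1568 and 1418; log2 0.33, SE 0.0397, adjusted p = 3.32e-13). Its annotated model of 624 bases holds the coding sequence only. The size of its rise depended on how length was treated, from a log2 change of 0.05 with limma on log2(FPKM + 1) (adjusted p = 0.117) and 0.10 in the effective-length fit (adjusted p = 0.0347) to 0.70 in the length-adjusted and 0.83 in the length- and GC-adjusted fit.

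HSPB8, which works with BAG3 in the removal of misfolded proteins, was at 39.73 and 37.98 FPKM in the knockdown, against 40.62 and 39.48 FPKM in the control, with overlapping groups (adjusted p = 0.715). The length-adjusted fit called it higher (log2 0.15, adjusted p = 0.00465). HSPB2, a small heat shock protein of muscle, was at 2.48 and 2.60 FPKM in the knockdown, against 2.89 and 3.17 FPKM in the control (adjusted p = 0.399), and its gene overlaps CRYAB. HSPB3, another muscle form, had 12 and 9 counts in the knockdown, against 21 and 20 counts in the control (0.95 and 0.80 FPKM against 1.96 and 2.02 FPKM). Its call as lower (log2 -1.01, SE 0.399, adjusted p = 0.0279) was lost without each library in turn (adjusted p from 0.0895 to 0.156) and in the length-adjusted fit (adjusted p = 0.127). Smooth muscle genes of peritubular cells moved in both directions beside HSPB6: of 5 examined ACTA2, MYH11, CNN1 and DES rose and TAGLN fell, and their summed FPKM was 5230 and 5127 in the knockdown, against 5389 and 5304 in the control. Of 8 Sertoli cell genes 5 rose and 1 fell, with a summed FPKM of 995 and 1020 against 839 and 826. The part of these cell types in the change of HSPB6 was not tested.

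Of 34 tested J-domain genes with a DNAJ symbol, 3 rose (8.82%), 14 fell (41.2%) and 17 did not pass, against 22.7% higher and 23.8% lower over all genes, with a median log2 change of -0.08. They held 0.204% and 0.206% of all counts in the knockdown libraries, against 0.222% and 0.223% in the control libraries. The length-adjusted fit called 4 higher and 8 lower, against 21.0% and 19.9% of all genes. The length- and GC-adjusted fit called 3 higher and 14 lower, against 17.5% and 22.0% of all genes.

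DNAJA proteins keep the domain order of bacterial DnaJ. Of their 4 genes 1 rose and 3 fell, against 22.7% higher and 23.8% lower over all genes. In the length-adjusted fit 0 of the 4 passed. DNAJA1, a main partner of HSPA8 (chromosome 10, 33432529 to 33445556), was at 275.18 and 284.41 FPKM in the knockdown libraries, against 335.96 and 346.52 FPKM in the control libraries. It fell to 0.855 times the control level (log2 -0.23, SE 0.023, adjusted p = 5.36e-17). Its ratio to HSPA8 by FPKM was 0.297 and 0.305 in the knockdown, against 0.344 and 0.352 in the control. Its log2 change was -0.04 (adjusted p = 0.122) in the length-adjusted fit and -0.15 (adjusted p = 2.89e-07) in the length- and GC-adjusted fit. DNAJA2, another partner of HSPA8, was at 14.18 and 14.03 FPKM in the knockdown, against 13.13 and 12.60 FPKM in the control. It rose 1.12-fold (log2 0.16, adjusted p = 2.99e-05) on a transcript of 10982 bases, and its log2 change was -0.02 in the length-adjusted fit (adjusted p = 0.735); with limma it did not pass (adjusted p = 0.0743).

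DNAJA3, the DNAJA protein of mitochondria, was at 15.66 and 15.15 FPKM in the knockdown, against 18.54 and 17.49 FPKM in the control (log2 -0.17, SE 0.0602, adjusted p = 0.0138). DNAJA4 was at 10.01 and 11.54 FPKM in the knockdown, against 13.29 and 13.74 FPKM in the control (log2 -0.21, SE 0.0737, adjusted p = 0.0136). The groups did not overlap for either gene. The adjusted p of DNAJA3 was 0.189 when control replicate 1 was left out and 0.113 when knockdown replicate 2 was. That of DNAJA4 was 0.197 when control replicate 2 was left out and 0.335 when knockdown replicate 1 was. DNAJA4 overlaps WDR61 and its counts were not whole, so its reads may in part belong to a neighbour.

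DNAJB proteins are the second class of J-proteins. Of 7 tested genes 0 rose, 3 fell and 4 did not pass, against 22.7% higher and 23.8% lower over all genes. DNAJB2, which also binds ubiquitin chains (chromosome 15, 121319897 to 121335927), was at 6.06 and 5.72 FPKM in the knockdown libraries, against 8.75 and 9.80 FPKM in the control libraries. It fell to 0.635 times the control level (log2 -0.66, SE 0.0915, adjusted p = 2.4e-10), and to a similar degree in the length-adjusted fit (log2 -0.61) and the length- and GC-adjusted fit (log2 -0.56). DNAJB1, the heat-inducible HSP40 that serves HSP70 in refolding (chromosome 2, 64761672 to 64764482), was at 59.19 and 60.06 FPKM in the knockdown, against 82.18 and 75.44 FPKM in the control. It fell to 0.818 times (log2 -0.29, SE 0.0413, adjusted p = 4.74e-10). The length-adjusted fit put it at -0.10 (adjusted p = 0.0316). Its window held 2 pairs of heat shock element units and no run of 3. DNAJB6, which keeps aggregating proteins soluble, was at 83.86 and 84.02 FPKM in the knockdown, against 98.68 and 98.75 FPKM in the control (log2 -0.21, SE 0.0355, adjusted p = 2.17e-07); in the length-adjusted fit it was at -0.03 (adjusted p = 0.621). DNAJB4 was at 41.36 and 45.43 FPKM in the knockdown, against 44.13 and 45.12 FPKM in the control, and DNAJB12, a J-protein of the endoplasmic reticulum membrane, was at 19.41 and 19.95 FPKM, against 19.71 and 20.92 FPKM (adjusted p = 0.332 and 0.994). In the length- and GC-adjusted fit DNAJB4 passed as lower (log2 -0.17, adjusted p = 9.89e-05) and so did DNAJB14 (log2 -0.15, adjusted p = 0.015), a membrane J-protein of the endoplasmic reticulum.

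DNAJC proteins share only the J domain and have the most diverse tasks. Of 23 tested genes 2 rose (8.70%), 8 fell (34.8%) and 13 did not pass, against 22.7% higher and 23.8% lower over all genes. DNAJC17, a nuclear J-protein tied to splicing (chromosome 1, 130516725 to 130559233), was at 6.27 and 6.73 FPKM in the knockdown libraries, against 10.66 and 12.99 FPKM in the control libraries. It fell to 0.601 times the control level (log2 -0.74, SE 0.14, adjusted p = 2.45e-06), and passed as lower under every alternative run, between a log2 change of -0.47 in the length- and GC-adjusted fit and -0.88 without control replicate 1. Its gene overlaps 3 others, so some of its reads may belong to them. DNAJC19, also called TIM14, the J-protein of the motor that pulls proteins into mitochondria, was at 14.01 and 12.38 FPKM in the knockdown, against 21.08 and 21.94 FPKM in the control. It fell to 0.676 times (log2 -0.56, SE 0.105, adjusted p = 1.33e-06), and the length-adjusted fit put it at -0.34 (adjusted p = 0.00475).

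DNAJC14, a membrane J-protein that assists receptor export, was at 17.23 and 18.36 FPKM in the knockdown, against 25.15 and 23.66 FPKM in the control (log2 -0.41, SE 0.0473, adjusted p = 3.47e-14). DNAJC5, the cysteine string protein of secretory vesicles, was at 13.80 and 13.34 FPKM in the knockdown, against 18.21 and 18.12 FPKM in the control (log2 -0.38, SE 0.0472, adjusted p = 1.82e-12). At 3524 and 4491 bases these transcripts are long, and the log2 changes were -0.42 for each in the length-adjusted fit. The gene of DNAJC14 overlaps ORMDL2 and its counts were not whole, and that of DNAJC5 overlaps LOC110257381. DNAJC7, a J-protein that binds both HSP70 and HSP90, was at 45.31 and 42.74 FPKM in the knockdown, against 52.25 and 51.96 FPKM in the control (log2 -0.19, adjusted p = 9.17e-05; -0.05 and 0.328 in the length-adjusted fit).

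Of the other 3 DNAJC genes that fell, DNAJC11 of mitochondria was at 0.863 times the control level. DNAJC18 of the endoplasmic reticulum was at 0.869 times and the histone chaperone DNAJC9 at 0.834 times. The gene of DNAJC9 overlaps FAM149B1, and its counts were not whole. The adjusted p of DNAJC18 was 0.152 when control replicate 1 was left out and 0.0732 when knockdown replicate 2 was. That of DNAJC9 was 0.0841 without control replicate 1, 0.0514 without control replicate 2, 0.161 without knockdown replicate 1 and 0.152 in the length-adjusted fit. DNAJC11 did not pass in the length- and GC-adjusted fit (adjusted p = 0.0504). DNAJC13, which sorts endosomal cargo, rose 1.12-fold to 25.25 and 27.17 FPKM in the knockdown, against 23.50 and 23.89 FPKM in the control (adjusted p = 5.53e-06), and was at a log2 change of 0.02 in the length-adjusted fit (adjusted p = 0.611) and not called by limma (adjusted p = 0.0674). DNAJC8, a splicing factor, was at 64.00 and 61.81 FPKM in the knockdown, against 59.70 and 63.23 FPKM in the control. Its groups overlapped and its call as higher (log2 0.10, adjusted p = 0.0421) was lost without each library in turn (adjusted p from 0.0635 to 0.325), in the effective-length fit (adjusted p = 0.1) and with limma (adjusted p = 0.542). DNAJC10, a disulfide reductase of the endoplasmic reticulum, was at 55.08 and 55.74 FPKM in the knockdown, against 56.56 and 57.41 FPKM in the control (log2 0.01, adjusted p = 0.879; -0.12 and 0.00129 in the length- and GC-adjusted fit).

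DNAJC15, a mitochondrial paralog of DNAJC19 with a short transcript (734 bases), changed its call with the fit. Its FPKM was 29.13 and 28.86 in the knockdown, against 36.41 and 36.35 in the control. By counts its log2 change was -0.10 (adjusted p = 0.416), in the effective-length fit it passed as lower (log2 -0.28, adjusted p = 0.0221), as it did with limma (-0.32, adjusted p = 0.00176), and in the length-adjusted fit it passed as higher (log2 0.27, adjusted p = 0.0193). The remaining 11 tested DNAJC genes did not pass by counts, with log2 changes between -0.36 (DNAJC4) and 0.18 (DNAJC24 and DNAJC28). Of these, DNAJC24 and DNAJC21 passed as higher in the length-adjusted fit (log2 0.30 and 0.23; adjusted p = 0.00933 and 0.00316). DNAJC4 passed as lower in the effective-length fit (log2 -0.40, adjusted p = 0.0442) and with limma (-0.39, adjusted p = 0.0151). DNAJC24 takes part in diphthamide synthesis and DNAJC21 in ribosome maturation.

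Of the 3 genes named for heat shock proteins without being chaperones of these families, HSPB11, the intraflagellar transport subunit IFT25, was at 8.28 and 7.01 FPKM in the knockdown, against 14.81 and 13.54 FPKM in the control. It fell to 0.641 times by counts (log2 -0.64, SE 0.164, adjusted p = 0.000459), but at 785 bases it did not pass in the length-adjusted fit (log2 -0.30, adjusted p = 0.146). HSPBP1, a nucleotide exchange factor of HSP70, was at 20.43 and 20.06 FPKM in the knockdown, against 24.10 and 23.47 FPKM in the control (log2 -0.16, adjusted p = 0.027). Its call was lost without each library in turn (adjusted p from 0.0529 to 0.144), and its log2 change was -0.00 in the length-adjusted fit. HSPBAP1, a partner of HSPB1, was at 3.58 and 4.22 FPKM in the knockdown, against 3.34 and 3.12 FPKM in the control (log2 0.31, adjusted p = 0.0154; 0.103 without control replicate 2, 0.227 without knockdown replicate 2 and 0.115 with limma).

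By compartment, the mitochondrial genes tested had falls and no rise by counts. Over all genes tested, 22.7% were called higher and 23.8% lower. Of 10 tested genes whose proteins are known or predicted to work in mitochondria, 0 rose, 5 fell (HSPE1, HSPD1, DNAJC19, DNAJC11 and DNAJA3) and 5 did not pass, with a median log2 change of -0.19. They held 0.0969% and 0.0981% of all counts in the knockdown libraries, against 0.112% and 0.111% in the control libraries. The length-adjusted fit called DNAJC15 higher and 4 of the 5 lower, all but DNAJA3 (median -0.11). Over all genes that fit called 21.0% higher and 19.9% lower. The length- and GC-adjusted fit called DNAJC15 higher and HSPE1, HSPD1, DNAJC19 and HSPA9 lower (median -0.11), against 17.5% and 22.0% over all genes. Of 7 tested genes assigned here to the endoplasmic reticulum 0 rose, 1 (DNAJC18) fell and 6 did not pass, with a median of 0.01. The length- and GC-adjusted fit called 4 of the 7 lower (DNAJC18, DNAJC10, DNAJB14 and HSPA13). Of 34 genes of the cytosol and other places 8 rose (23.5%), 13 fell (38.2%) and 13 did not pass, with a median of -0.04. That group took in the membrane J-protein DNAJC14, which fell. Of 3 nuclear genes DNAJC17 and DNAJC9 fell and DNAJC8 rose. Of 4 genes of endosomes and vesicles DNAJC13 rose, DNAJC5 fell and 2 did not pass. HSPA14 and DNAJC2, which work at the ribosome, did not pass. Whether the compartments differ from each other was not tested.

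**Figure D4:**
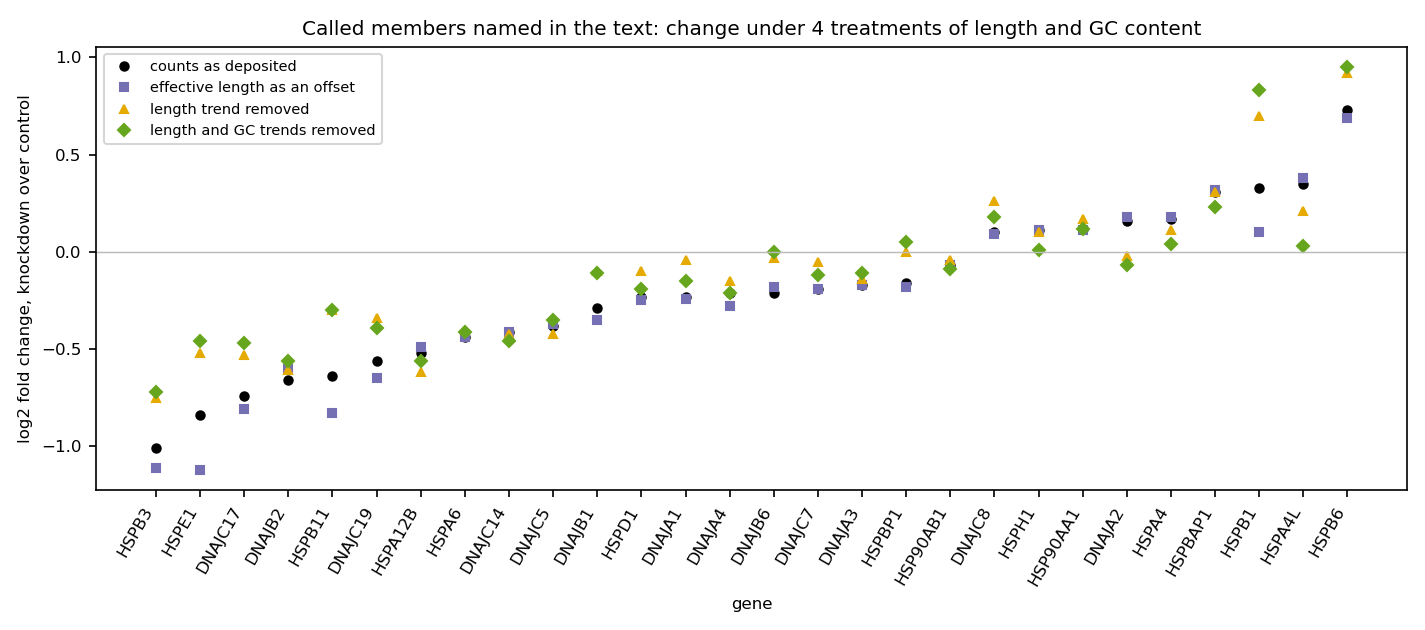
Log2 fold change (y axis, knockdown over control) of the called genes named by the rule, from counts (circles), from the effective-length fit (squares), and after adjustment for length (triangles) or for length and GC content (diamonds). The rise of HSPB6 and the falls of HSPE1, DNAJC17, DNAJB2, DNAJC14 and DNAJC5 keep their direction under all 4, while the HSP110 genes and DNAJA2 come close to 0 or below it in the length- and GC-adjusted fit.

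The partners of these chaperones were examined in lists taken from their known roles. Of 5 genes around the heat shock factors 2 rose and 3 fell, against 22.7% higher and 23.8% lower over all genes. HSF1, the main activator of heat shock genes, was at 25.60 and 25.93 FPKM in the knockdown libraries, against 21.77 and 22.70 FPKM in the control libraries (log2 0.28, adjusted p = 1.6e-05; 0.42 in the length-adjusted fit). HSF2 was at 21.53 and 21.41 FPKM in the knockdown, against 24.08 and 25.51 FPKM in the control (log2 -0.14, adjusted p = 0.0194, and 0.176 in the length-adjusted fit). HSBP1, a small protein that binds HSF1, was at 422.22 and 410.00 FPKM in the knockdown, against 794.39 and 762.88 FPKM in the control (log2 -0.46 by counts). The log2 change of HSBP1 was -0.85 in the effective-length fit and -0.10 in the length-adjusted fit. In the length- and GC-adjusted fit it was -0.04 and did not pass (adjusted p = 0.328). HSF2BP, a partner of HSF2, fell by 0.34 on the log2 scale, and HSF5, a germ line factor in the mouse, rose at a level of 0.15 to 0.42 FPKM in the 4 libraries (adjusted p = 0.017). The call of HSF5 rested on 13 to 35 counts a library and was lost without control replicate 1 (adjusted p = 0.235), without knockdown replicate 2 (adjusted p = 0.292) and in the length- and GC-adjusted fit (adjusted p = 0.0616). In the length- and GC-adjusted fit 1 of the 5 was higher and 1 lower, against 17.5% and 22.0% over all genes.

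Of 9 nucleotide exchange factors of HSP70, 2 rose, 3 fell and 4 did not pass, against 22.7% higher and 23.8% lower over all genes. BAG3, which joins HSP70 to HSPB8, rose 1.26-fold to 44.18 and 43.11 FPKM in the knockdown, against 35.70 and 35.96 FPKM in the control (adjusted p = 8.8e-13), and BAG6 rose 1.11-fold. SIL1 of the endoplasmic reticulum fell to 21.88 and 22.10 FPKM in the knockdown, against 32.15 and 32.26 FPKM in the control, and GRPEL1, which serves HSPA9, fell to 0.815 times the control level (adjusted p = 0.276 in the length-adjusted fit). Of 18 HSP90 cochaperones 1 (CHORDC1) rose (5.56%), 12 fell (66.7%) and 5 did not pass, with a median log2 change of -0.22. In the length-adjusted fit 4 rose and 12 fell, against 21.0% and 19.9% over all genes. CDC37, which brings kinases to HSP90, was at 94.29 and 90.06 FPKM in the knockdown, against 123.53 and 127.91 FPKM in the control, and AHSA1, the activator of its ATPase, was at 69.99 and 70.34 FPKM, against 99.89 and 96.28 FPKM. NUDC, a cochaperone that also binds dynein complexes, fell to 0.704 times the control level.

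Of the 8 subunits of the cytosolic chaperonin TRiC, 7 fell and CCT6A did not pass, with a median log2 change of -0.15. Over all genes tested, 22.7% were called higher and 23.8% lower by counts. CCT4 was at 128.83 and 130.07 FPKM in the knockdown, against 161.79 and 160.92 FPKM in the control (log2 -0.26, adjusted p = 1.56e-18), and CCT7, TCP1 and CCT8 fell by 0.23, 0.18 and 0.17 on the log2 scale. The length-adjusted fit called 1 of the 8 lower, and the length- and GC-adjusted fit 5, against 19.9% and 22.0% over all genes. Of 8 genes of prefoldin and its relatives, which hand actin and tubulin to TRiC, 7 fell and URI1 rose, with a median of -0.62 by counts and -0.29 in the length-adjusted fit (5 lower, 1 higher). PFDN5 was at 50.61 and 49.31 FPKM in the knockdown, against 110.14 and 107.07 FPKM in the control, and PFDN6, PFDN1 and PFDN2 fell by 0.81, 0.74 and 0.65 on the log2 scale. Of 10 other mitochondrial chaperones and proteases 0 rose, 7 fell and 3, among them the mitochondrial HSP90 TRAP1, did not pass. LONP1, a protease of the matrix, was at 31.41 and 34.59 FPKM in the knockdown, against 42.92 and 42.15 FPKM in the control (log2 -0.32, adjusted p = 1.83e-12, and again -0.32 in the length-adjusted fit), and HTRA2, CLPP and HSCB fell by 0.65, 0.46 and 0.49. Among J-domain proteins without a DNAJ symbol, SEC63, which serves the endoplasmic reticulum translocon, rose, HSCB fell and GAK did not pass. SEC63 also passed in the length-adjusted fit (log2 0.17, adjusted p = 1.8e-07), and HSCB did not (adjusted p = 0.321), while in the length- and GC-adjusted fit SEC63 was at 0.06 (adjusted p = 0.097).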

How the data were processed

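mRNA libraries were made from total RNA and sequenced on an MGI platform. Per the labels' protocols, the authors filtered reads with SOAPnuke 2.1.0, aligned them to Sscrofa 11.1 with HISAT2 2.2.1, mapped them to transcripts with bowtie2 2.3.5 and counted with RSEM 1.3.3. Expected counts, as deposited, can hold fractions, since RSEM splits reads between transcripts. The deposited FPKM and TPM (TPM was not used) were made by the authors with RSEM. The deposited tables also give transcript and effective lengths, used here as other quantities in bases.

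Expected counts were rounded and tested with edgeR 4.0.16 in R 4.3.3 (TMM, filterByExpr with a minimum count of 10 and a total of 15, two-sided quasi-likelihood test, Benjamini-Hochberg over all 15763 genes tested, called under 0.05). Standard errors come from the F statistic. The code was tested on simulated data. All adjusted p-values come from this fit unless another is named. With 2 libraries a group the smallest two-sided permutation p is 0.333. The 2 samples of a group came from independent experiments, per the labels, yet squared differences between libraries of a group were 1.26 (knockdown) and 1.15 (control) times those expected from sampling, and the p-values cover only this spread. FPKM differences were tested with limma 3.58.1 on log2(FPKM + 1), which understates changes of low genes. Length and GC trends were smooth fits per library (mgcv 1.9.3); GC content came from RefSeq transcripts and the fit with it was added after the data were seen. All 68 genes matched RefSeq, by symbol for the windows and by accession for transcripts.

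The members, families and lists were chosen with earlier results of these data known. Every member may be named. FPKM is given in every library for the 4 of each family with the highest mean FPKM and for called genes with a mean of at least 1 FPKM among the 4 of the family with the largest change. Of each partner list up to 4 genes with the smallest p are named, leaving out some that are not reported here; HSPA2, HSPA13, DNAJC13 and CHORDC1, URI1, TRAP1 and CCT6A were added after their values were seen. No source used here says that the counting used strand, so reads of overlapping genes cannot be told apart.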

Additional observations from a re-analysis of the deposited data

How the results depend on the processing

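With DESeq2 4452 genes in all and 14 members as lower were called, against 7319 and 22 with edgeR. With limma and a pseudocount of 1 or 0.1 FPKM 2 members were called higher, against 10, and without a filter on FPKM 4438 genes in all and again 2 members higher. With the length trend removed 12 members were called lower. The cause of these differences was not tested. Leaving out each library in turn gave 6040 to 6265 called genes, 7 to 10 members higher and 16 to 17 lower. Among the named members, the log2 change reversed with the length trend removed for DNAJA2 (-0.02), DNAJC15 (0.27), HSP70.2 (0.10) and HSPA8 (0.07), and with length and GC trends removed for DNAJA2 (-0.07), DNAJB6 (0.00, just above 0), DNAJC10 (-0.12), DNAJC15 (0.30), HSPBP1 (0.05) and HSP70.2 (0.15). Over the 15 alternatives, 1 of the 10 members called higher (HSPB6) and 9 of the 22 called lower (HSPE1, HSPD1, HSP90AB1, DNAJB1, DNAJB2, DNAJC5, DNAJC14, DNAJC17 and DNAJC19) kept their call every time. The replicate number as a block called 7480 genes, 10 members higher and 22 lower, ended the call of HSPA6 (adjusted p = 0.0639) and gained that of HSPA8 as lower (adjusted p = 0.038); the labels do not say that the numbers mark shared cultures, and the deviations of same-numbered libraries correlated at 0.0515 over 8586 genes. The small counts of HSPB3 and HSPA6 limit what can be said of them at this depth.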
